A study of Arabidopsis thaliana with 48 samples.

Results

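Infested and control Arabidopsis thaliana plants were compared 24 h after spider mites were placed on them. The comparison holds 8 of the 48 libraries of the study, 4 from infested and 4 from control plants, which were taken by their labelled treatment and harvest time. It is described across the 22252 genes that passed a filter on low counts. The infested group consisted of Col-0 (the Columbia accession) plants that were 3 weeks old when 20 adult females of Tetranychus urticae were put on each of them. The control group consisted of Col-0 plants of the same age that received no mites. Plants of both groups stood in cylinders, so the enclosure is common to both. RNA came from the whole aerial part, and each library was made from a pool of 4 plants. The study followed the same treatments at 30 min and, after 24 h, at 4, 7, 12 and 15 d. Values are given as CPM, counts per 1 M counts after TMM scaling of library sizes (a trimmed mean of log ratios), and are listed for replicates 1 to 4 in that order. Log2 fold changes are infested over control, from edgeR's quasi-likelihood test with Benjamini-Hochberg adjustment over all genes tested, and a gene is said to have risen or fallen when its adjusted p was under 0.05. The pools are the replicates, so p-values measure the spread between pools. That spread was estimated within the 12 groups of all 48 libraries together, not from these 8 libraries alone. In a fit to the 8 libraries alone, 10 of the 228 calls at 24 h of named genes ended. In whole shoots fewer cells of a type and less RNA per cell cannot be told apart.

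Spider mites pierce leaf cells with a stylet and empty them. Damaged leaves make jasmonic acid (JA) from plastid lipids. Its conjugate with isoleucine, JA-Ile, is sensed by the receptor COI1, which removes JAZ repressors from MYC transcription factors and so switches on defence genes. Arabidopsis shoots also make glucosinolates, sulfur-rich compounds that myrosinases break down into toxic products when cells are broken, and the indole class, made from tryptophan, is known to limit spider mites on this plant. Salicylic acid (SA) is best known from the response to pathogens that feed on living tissue.

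Library totals were 16.5 to 17.56 M counts for infested and 17.9 to 19.98 M for control pools, within the 12.5 to 23.4 M of the whole series. The first principal component took 75.2% of the variance over the 8 libraries. Infested pools scored 45.4, 42.0, 30.6 and 37.0 on it, and control pools scored -52.6, -19.1, -39.5 and -43.8. Control replicate 2 therefore lay nearest to the infested pools, and it stood apart in JA genes: summed over the 13 genes of JA turnover, levels were 1582, 1155, 989 and 1397 CPM in infested pools, against 71.9, 350.1, 153 and 89.1 CPM in control pools. Control replicate 2 had the highest sum of its group and replicate 3 the next, yet both were below every infested pool. Without control replicate 2, 2772 genes were higher and 2316 lower, against 2882 and 2275 with it. The labelled tissue was checked with marker genes. The leaf gene RCA (AT2G39730) was at 9369 to 15212 CPM in all 8 libraries, and of 12 root markers 11 were too low to be tested and IRT1 had 0 counts in infested and 1 in control pools. None of the 8 floral genes tested passed by edgeR (2 at an unadjusted p under 0.05, by DESeq2 1 was lower and 0 higher, in a fit to the 8 libraries alone 1 was lower, and with a replicate block 1 was higher and 1 lower). Of 7 seed genes 2 could be tested and both rose, the storage protein gene SESA1 (AT4G27140) with 48 counts in infested and 1 in control pools, a ratio of 53.8 (95% interval 9.20 to 2168) and the late embryogenesis gene GEA6 (AT2G40170) with 52 counts in infested and 2 in control pools, a ratio of 29.1 (95% interval 7.67 to 247). A fit to the 8 libraries alone, which had its own filter on low counts, called neither seed gene. Of 8 stomatal genes the channel gene KAT1 (AT5G46240) fell by 0.81 and the other 7 did not pass. The part of seed and guard cell genes in the other results was not tested.

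**Figure D1:**
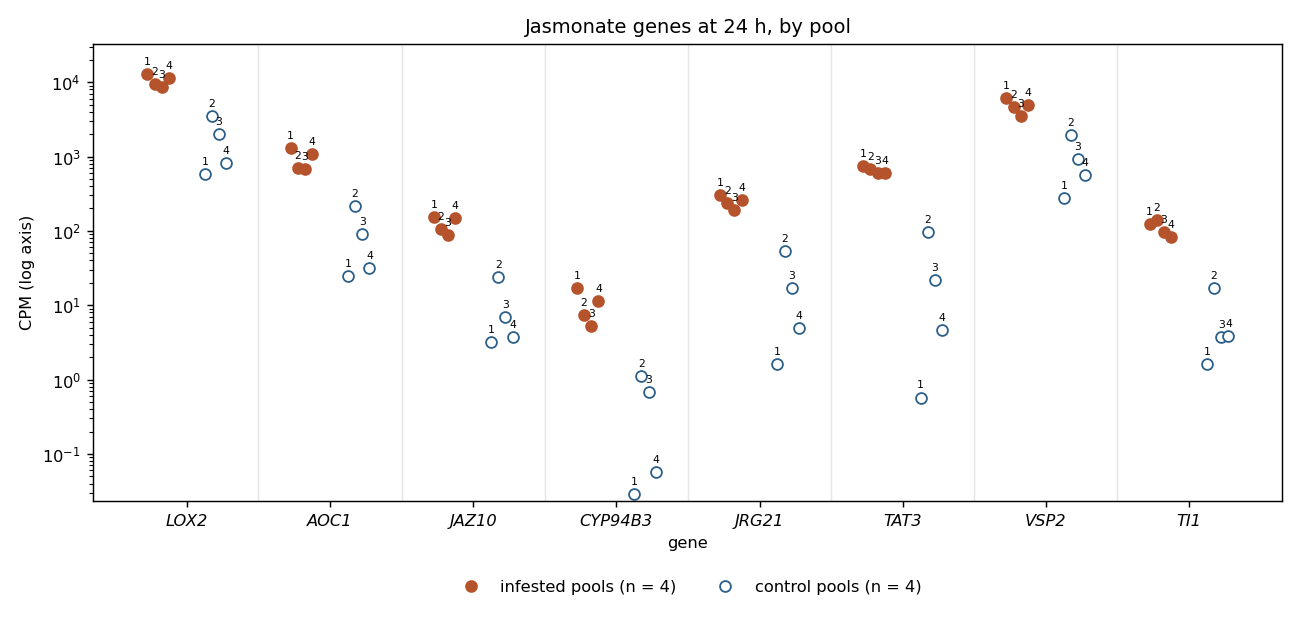
CPM (log axis) of 8 JA genes in each pool, with 4 infested pools (left, filled circles) and 4 control pools (right, open circles) per gene and the replicate number beside each point; values of 0 are drawn at the lower edge. All infested pools lie above all control pools, and control replicate 2 is the highest control in each of the 8 genes.

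At 24 h 2882 genes (13.0% of those tested) were higher in infested plants and 2275 (10.2%) were lower. The changes were not alike in size. Rises of at least 2-fold numbered 1309 (5.88%) and falls of that size 224 (1.01%), rises of at least 8-fold 300 and such falls 13. The median log2 fold change was 0.88 among the rises and -0.39 among the falls, beside -0.02 over all genes tested. Infested and control pools did not overlap for 3090 genes that were higher (13.9%) and 2882 that were lower (13.0%). The shares of 13.0% and 10.2% are the background against which the counts of gene groups below are to be read, and group medians are to be read against -0.02.

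**Figure D2:**
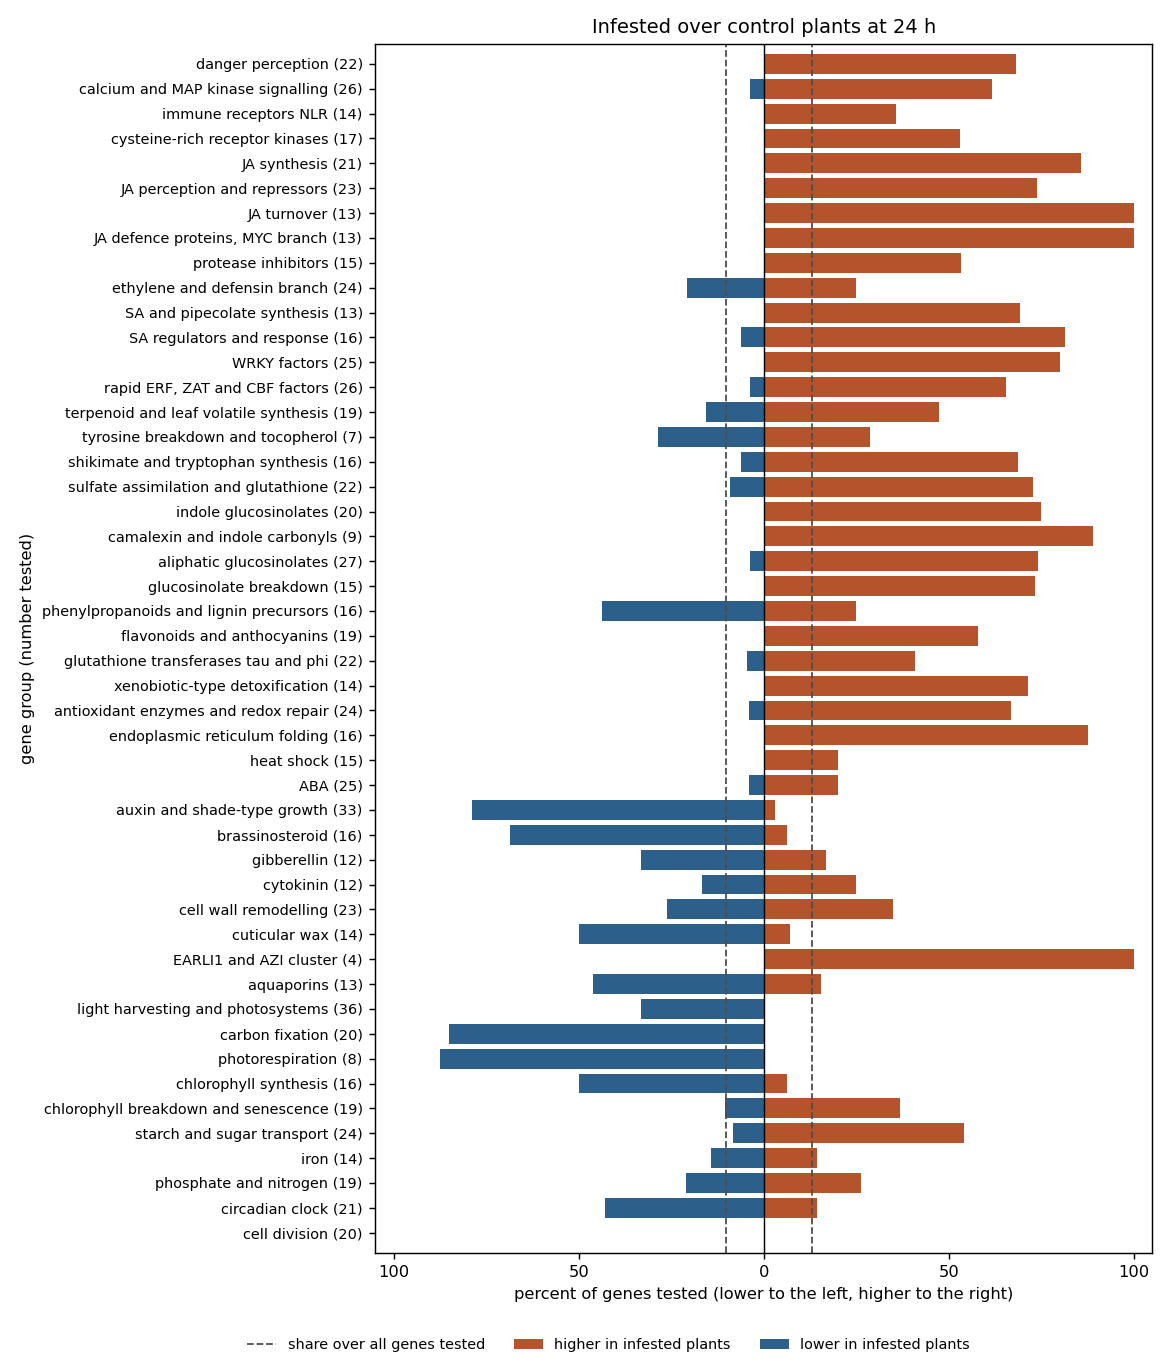
Percent of the tested members of each of 48 gene groups that were higher (bars to the right) or lower (bars to the left) in infested than in control plants at 24 h, with the number tested beside each name. Dashed lines mark the shares over all genes tested, 13.0% higher and 10.2% lower. Groups of JA, defence and sulfur metabolism extend to the right and those of auxin, brassinosteroid and carbon fixation to the left.

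The 6 genes with the largest gains took up much of the change in the pool of transcripts, and all of them are known JA-responsive genes or JA enzymes except for AT3G28220, annotated as a TRAF-like protein. Together they made up 4.85%, 3.67%, 3.26% and 4.31% of scaled counts in infested pools, against 0.178%, 1.298%, 0.564% and 0.292% in control pools. The largest gain was that of BGLU18 (AT1G52400), a beta-glucosidase of endoplasmic reticulum bodies. It had 15169.5, 12259.6, 11842 and 14752 CPM in infested pools, against 548, 4457, 1622 and 961 CPM in control pools (log2 fold change 2.83, SE 0.43, adjusted p = 3.1e-06). LOX2 (AT3G45140), the main leaf lipoxygenase of JA synthesis, had 13042, 9579, 8563 and 11304 CPM in infested pools, against 588, 3539, 2025 and 816 CPM in control pools (log2 fold change 2.61, SE 0.42, adjusted p = 8.6e-06). Both genes ran in the same order over the control pools, with replicate 2 highest and replicate 1 lowest. AT3G28220 itself had 5089.8, 3880.2, 3474 and 4379.8 CPM in infested pools, against 156, 1099, 435 and 194 CPM in control pools (log2 fold change 3.16, SE 0.52, adjusted p = 1.4e-05). The vegetative storage proteins VSP2 (AT5G24770) and VSP1 (AT5G24780) and the lectin JR1 (AT3G16470) made up the rest, with log2 fold changes of 2.37, 3.25 and 3.07 (adjusted p = 0.00028, 0.00031 and 8.3e-09). VSP1 ranged from 32.9 CPM in control replicate 1 to 1121 CPM in control replicate 2, and a fit to the 8 libraries alone gave it an adjusted p of 0.074 (range over the alternatives 8.7e-07 to 0.074).

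The 6 largest losses were photosynthetic and much narrower. They summed to 3.07%, 2.95%, 3.11% and 3.06% of scaled counts in infested pools, against 4.095%, 3.91%, 4.45% and 4.36% in control pools, with no overlap. RCA (AT2G39730), the activase that keeps Rubisco working, had 9369, 9386, 9626 and 9637 CPM in infested pools, against 13305, 12531, 15212 and 14292 CPM in control pools (log2 fold change -0.54, SE 0.07, adjusted p = 8.5e-08). The infested pools lay within a narrow band and all control pools were above it. The Rubisco small subunit gene RBCS3B (AT5G38410), the carbonic anhydrase gene CA1 (AT3G01500), GUN5 (AT5G13630) for a subunit of the magnesium chelatase of chlorophyll synthesis and the aldolase gene FBA2 (AT4G38970) fell by 0.42, 0.57, 0.49 and 0.48 on the log2 scale. The antenna gene CAB3 (AT1G29910) was at -0.31 (adjusted p = 0.036), a call that ended in 6 of the 8 fits that left out 1 pool (range over the alternatives 0.00048 to 0.098); it shares reads with near-identical copies.

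JA synthesis genes rose for the most part: 18 of 21 genes tested were higher and 0 lower, with a median log2 fold change of 0.95. All 4 lipoxygenases and all 6 genes of the later plastid steps rose. AOC1 (AT3G25760), an allene oxide cyclase, had 1292, 702, 685 and 1068 CPM in infested pools, against 24.5, 219, 91.2 and 31.5 CPM in control pools (log2 fold change 3.35, SE 0.57, adjusted p = 2.1e-05). Infested replicate 1 was the highest and control replicate 2 the highest of its group, below every infested pool. AOC3 (AT3G25780) and the lipoxygenase LOX4 (AT1G72520) rose by 3.54 and 3.27 (adjusted p = 4.2e-06 and 6.1e-06); AOC1 and AOC3 are near-identical, so the split of reads between them is uncertain. DAD1 (AT2G44810), a lipase that releases the fatty acid precursor, was almost silent, with 21 counts in infested and 0 in control pools, at least 7.84-fold higher against a floor of 3 counts over the group; its adjusted p was 0.0067, and 0.11 with a replicate block. Among the genes that did not pass were the oxidase ACX5 and the transporter ABCG16. Without control replicate 2 the count was 17 higher and 1 lower.

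Repressors of the pathway rose with it, whereas the receptor gene did not pass. The JAZ family had 11 of 13 genes higher and 0 lower, with a median log2 fold change of 2.27. JAZ10 (AT5G13220) had 154, 106, 88.3 and 149 CPM in infested pools, against 3.21, 24.19, 6.95 and 3.76 CPM in control pools (log2 fold change 3.69, SE 0.60, adjusted p = 9.8e-06). No pools overlapped, and the control pools again ran highest in replicate 2. JAZ5 (AT1G17380), JAZ1 (AT1G19180) and JAZ8 (AT1G30135) rose by 3.39, 3.18 and 2.82. Receptor gene COI1 (AT2G39940) was at -0.11 on the log2 scale and did not pass (adjusted p = 0.36), and JAZ4 and JAZ11 were the JAZ genes that did not pass. Of all 23 genes tested for perception and repression, 17 rose and 0 fell.

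Genes that remove active JA rose without exception: 13 of 13 tested, with a median log2 fold change of 3.25. CYP94B3 (AT3G48520), a cytochrome P450 that oxidises JA-Ile, had 16.9, 7.31, 5.26 and 11.3 CPM in infested pools, against 0, 1.12, 0.690 and 0.0579 CPM in control pools (log2 fold change 4.39, SE 0.92, adjusted p = 0.00036). It was at or near 0 in control replicates 1 and 4, and every infested pool was above every control pool. AT3G11180, AT2G38240 and JRG21 (AT3G55970), oxygenases that hydroxylate JA, rose by 3.99, 3.95 and 3.69 (adjusted p = 2.5e-08, 0.00015 and 7.1e-05). JRG21 had 308, 239, 189 and 259.8 CPM in infested pools, against 1.61, 53.4, 17.0 and 4.92 CPM in control pools. The 13 calls held without control replicate 2.

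Proteins of the MYC-driven defence branch followed the same pattern, with 13 of 13 genes higher and a median log2 fold change of 2.73. In a fit to the 8 libraries alone 11 were higher. TAT3 (AT2G24850), a JA-inducible tyrosine aminotransferase, had 752, 669, 608 and 607 CPM in infested pools, against 0.574, 95.6, 21.9 and 4.57 CPM in control pools (log2 fold change 4.42, SE 0.95, adjusted p = 0.00049). The control pools spanned a wide range here, and the highest of them, replicate 2, was far below the lowest infested pool. The antimicrobial thionin THI2.1 (AT1G72260) had 108, 120.0, 79.6 and 113 CPM in infested pools, against 2.06, 16.7, 1.38 and 1.85 CPM in control pools (log2 fold change 4.24, SE 0.46, adjusted p = 4.7e-09). For that gene 3 of the 4 control pools were close together. NAC019 (AT1G52890), a transcription factor of the JA response, and CORI3 (AT4G23600), a cystine lyase, rose by 3.72 and 3.29 (adjusted p = 3.4e-07 and 0.00033; for CORI3 0.052 in a fit to the 8 libraries alone, range over the alternatives 9.9e-07 to 0.052). Among protease inhibitors, which block digestive enzymes of herbivores, 8 of 15 genes rose and 0 fell (median 1.03, and 1.22 without the gene that had no counts in either group). The rise held for all 5 trypsin inhibitors of the mustard type. TI1 (AT2G43510) had 123, 142, 96.5 and 83.5 CPM in infested pools, against 1.61, 17.2, 3.71 and 3.88 CPM in control pools (log2 fold change 4.06, SE 0.40, adjusted p = 5.8e-10), and AT2G43530 and TI2 (AT2G43520) rose by 3.29 and 2.95. The Kunitz inhibitor gene KTI1 (AT1G73260) had 3.07, 6.80, 1.15 and 0.804 CPM in infested pools, against 0.115, 0.266, 0.371 and 0.174 CPM in control pools, with infested replicate 2 highest (log2 fold change 3.61, adjusted p = 0.00042). The PR-6 type genes UPI and AT2G38870 did not pass, nor did 3 of 4 genes for cystatins and serpin.

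The ethylene branch gave a divided picture: 6 of 24 genes rose and 5 fell (median 0.39). Those that rose included ACS2 (AT1G01480), an enzyme of the committed step of ethylene synthesis, at 1.33 ± 0.343 CPM in infested pools and 0.0543 ± 0.0754 CPM in control pools (SD, n = 4 each), the regulators ERF1 (AT3G23240) and ERF2 (AT5G47220) at 3.19 and 1.91, and the defensin gene PDF1.4 (AT1G19610), which had 8.53, 10.8, 9.67 and 8.53 CPM in infested pools, against 0.229, 1.81, 0.318 and 0.405 CPM in control pools (log2 fold change 3.73, SE 0.39, adjusted p = 5.9e-10). Those that fell included EIL1 (AT2G27050), a transcription factor of the ethylene response, EBF2 (AT5G25350), which targets such factors for degradation, ACS8 (AT4G37770) and the receptor gene ERS2 (AT1G04310). EIL1 had 63.9, 58.7, 70.0 and 71.6 CPM in infested pools, against 90.2, 85.9, 91.5 and 99.0 CPM in control pools (log2 fold change -0.47, SE 0.09, adjusted p = 0.00013), and EBF2 fell by 0.37. ACS8 and ERS2 were at -0.79 and -0.44 (adjusted p = 0.045 and 0.024), and their calls ended in several fits that left out 1 pool (ranges over the alternatives 0.011 to 0.19 and 0.0012 to 0.14), which brought the falls down to 3 without control replicate 1 or without any of infested replicates 1, 2 and 3. The best-known marker of the branch, the defensin gene PDF1.2 (AT5G44420), was at 0.47 (adjusted p = 0.8), with reads that cannot be separated from its near-identical copies.

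SA-type genes rose too, but the pools differed among themselves. Genes of SA and pipecolate synthesis rose in 9 of 13 members and fell in 0 (median 1.61), and regulators and response genes rose in 13 of 16 members and fell in 1 (median 1.1). EDS5 (AT4G39030), the transporter that exports the SA precursor from plastids, had 47.5, 36.9, 28.3 and 39.1 CPM in infested pools, against 2.58, 8.58, 6.21 and 4.81 CPM in control pools (log2 fold change 2.77, SE 0.28, adjusted p = 6.2e-10). EDS16 (AT1G74710), the isochorismate synthase ahead of it, was at 0.44 (adjusted p = 0.17, and 0.0018 in a fit to the 8 libraries alone). AT4G10500, annotated as an oxygenase and known to hydroxylate SA, had 2.63, 2.77, 5.14 and 1.298 CPM in infested pools, against 0, 0.213, 0 and 0.232 CPM in control pools (log2 fold change 4.66, adjusted p = 0.00017). ALD1 (AT2G13810), which starts pipecolate synthesis, had 121 counts in infested and 2 in control pools, a ratio of 67.8 (95% interval 18.4 to 566). UGT76B1 (AT3G11340), a glucosyltransferase, had 146 counts in infested and 3 in control pools, a ratio of 54.5 (95% interval 18.3 to 268). Both intervals cover counting error only.

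PR1 (AT2G14610), the most used marker of the SA response, had 2.51, 50.3, 28.8 and 0.989 CPM in infested pools, against 0.229, 0.639, 0.371 and 0.869 CPM in control pools. Infested replicates 2 and 3 were high, and infested replicates 1 and 4 were close to the control pools without overlapping them. For PR1 the difference was past the threshold (log2 fold change 5.28, SE 1.18, adjusted p = 0.00084), and the adjusted p was 0.056 in a fit to the 8 libraries alone (range over the alternatives 9.9e-08 to 0.056). BGL2 (AT3G57260), the glucanase also called PR2, did not show this division: it had 217, 175, 196 and 140.1 CPM in infested pools, against 2.06, 15.5, 3.45 and 2.95 CPM in control pools (log2 fold change 4.91, SE 0.58, adjusted p = 2.9e-08). GRX480 (AT1G28480), a glutaredoxin, and NIMIN-2 (AT3G25882), a partner of the SA receptor, rose by 4.21 and 2.79. One member fell, the SA receptor gene NPR4 (AT4G19660) at -0.29 (adjusted p = 0.04), a call that ended in 6 of the 8 fits that left out 1 pool (range over the alternatives 0.011 to 0.15). The split of PR1 was shared by other genes of the infested group. GSTF2 (AT4G02520), a glutathione transferase induced by SA, had 69.8, 399, 164 and 49.9 CPM in infested pools, against 16.9, 23.4, 26.3 and 32.7 CPM in control pools (log2 fold change 2.78, SE 0.52, adjusted p = 9.4e-05), the small membrane protein gene PCR1 (AT1G14880) had 8.34, 38.2, 26.6 and 5.38 CPM in infested pools, against 0.688, 1.07, 1.06 and 2.49 CPM in control pools (log2 fold change 3.89, adjusted p = 0.0027), and the chitin-binding protein gene PR4 (AT3G04720) had 24.39, 87.4, 37.1 and 18.5 CPM in infested pools, against 9.86, 17.0, 15.44 and 7.99 CPM in control pools (log2 fold change 1.73, adjusted p = 0.00047; 0.077 in a fit to the 8 libraries alone). In each of these, infested replicate 2 was highest and replicate 3 next. These genes were chosen for the width of their spread, so the pattern describes the 4 pools and was not tested. AT1G53885 behaved otherwise, at 45.8 CPM in infested replicate 1 and 1.32 to 1.67 CPM in the other infested pools; its adjusted p was 0.0011, 0.17 without that pool and 0.11 in a fit to the 8 libraries alone. AT5G36790, annotated as a haloacid dehalogenase-like hydrolase, had 64.3, 9.26, 96.0 and 87.9 CPM in infested pools, against 12.04, 16.5, 196 and 10.1 CPM in control pools, with wide and overlapping ranges (adjusted p = 0.98).

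**Figure D3:**
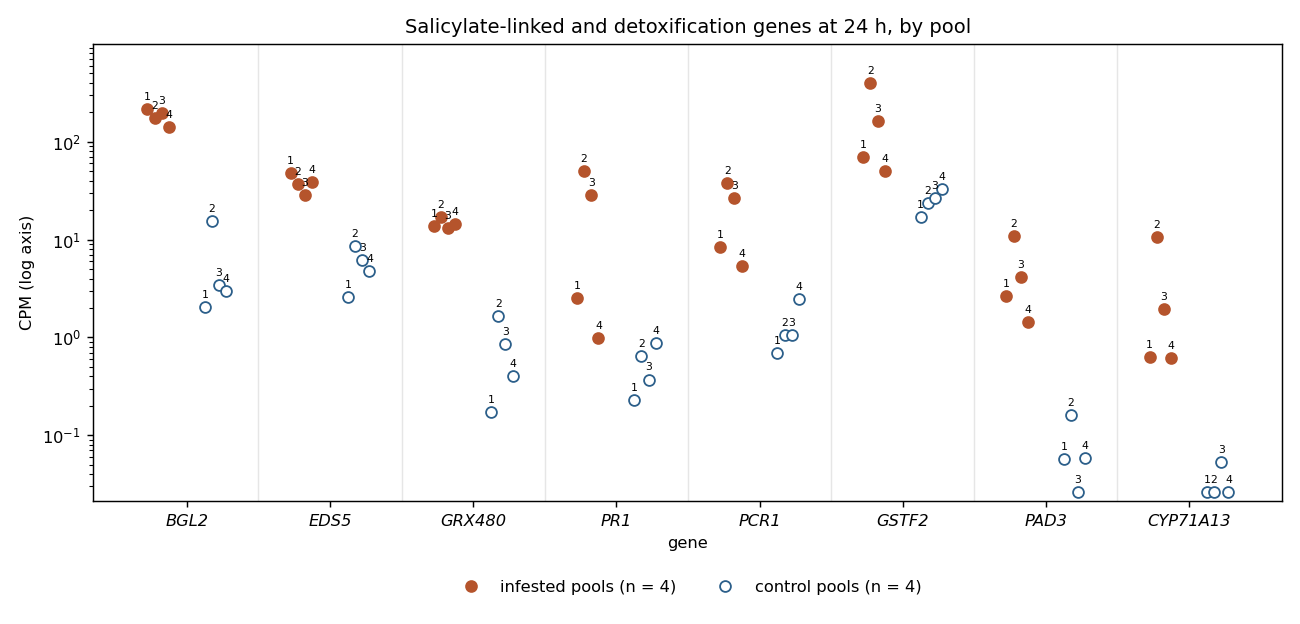
CPM (log axis) of 8 SA-linked and detoxification genes in each pool, with infested pools (left, filled circles) and control pools (right, open circles) per gene and the replicate number beside each point; values of 0 are drawn at the lower edge. BGL2, EDS5 and GRX480 are even over the infested pools, while PR1, PCR1, GSTF2, PAD3 and CYP71A13 are highest in infested replicate 2.

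Genes that sense damage and pathogens rose in 15 of 22 members and fell in 0 (median 1.15). These included receptors of the plant's own danger peptides, of microbial patterns and of wall fragments. WAK1 (AT1G21250), a wall-associated kinase, had 61.3, 106, 91.1 and 54.5 CPM in infested pools, against 11.4, 22.6, 20.8 and 28.7 CPM in control pools (log2 fold change 1.91, SE 0.32, adjusted p = 1.4e-05). Infested replicates 2 and 3 were the highest pools. RLP23 (AT2G32680), which recognises a peptide of many microbes, rose by 2.02, FRK1 (AT2G19190), a kinase used as an early marker of immune responses, by 2.84, and PROPEP3 (AT5G64905), the precursor of a danger peptide, by 2.12. Receptor gene FLS2 (AT5G46330), for flagellin, was at -0.15 (adjusted p = 0.65). Further receptor-like protein genes stood among the largest rises of all genes: RLP40 (AT3G24982) had 25.4, 41.1, 26.5 and 15.8 CPM in infested pools, against 0.574, 2.40, 0.690 and 0.579 CPM in control pools, and RLP53 (AT5G27060) had 21.9, 26.6, 18.9 and 16.4 CPM in infested pools, against 0, 1.76, 1.11 and 0.405 CPM in control pools (log2 fold changes 4.66 and 4.64). AIG1 (AT1G33960), a nucleotide-binding protein induced by a bacterial effector, had 27.0, 44.0, 25.3 and 33.9 CPM in infested pools, against 0.229, 2.40, 0.902 and 0.695 CPM in control pools (log2 fold change 4.92, SE 0.77, adjusted p = 5.8e-06). In all 3 genes control replicate 2 was the highest control pool and far below the lowest infested pool.

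Cysteine-rich receptor kinases rose in 9 of 17 members and fell in 0 (median 1.59). CRK13 (AT4G23210) had 31.5, 24.32, 24.25 and 29.5 CPM in infested pools, against 1.26, 4.74, 2.28 and 1.1002 CPM in control pools (log2 fold change 3.53, SE 0.40, adjusted p = 1.2e-08), CRK38 (AT4G04510) and CRK37 (AT4G04500) rose by 4.67 and 2.64, and CRK39 (AT4G04540) had 44 counts in infested and 3 in control pools, a ratio of 16.4 (95% interval 5.27 to 82.8). Intracellular immune receptors changed less, with 5 of 14 higher and a median of 0.20: the helper genes ADR1 (AT1G33560) and ADR1-L1 (AT4G33300) and the sensor gene ZAR1 (AT3G50950) rose by 0.72, 0.63 and 0.61. Calcium and MAP kinase genes rose in 16 of 26 members and fell in 1 (median 0.71). AT1G76640, an EF-hand calcium sensor, had 49.3, 25.0, 15.42 and 35.4 CPM in infested pools, against 0, 3.73, 0.318 and 0 CPM in control pools (log2 fold change 4.91, SE 0.68, adjusted p = 6.1e-07), and its neighbour CML38 (AT1G76650) rose by 3.79. Control replicates 1 and 4 held no read of AT1G76640 and control replicate 2 held the most. BAP1 (AT3G61190), an inhibitor of cell death, and AT3G63380, annotated as a calcium-transporting ATPase, rose by 3.57 and 3.39. The one fall was that of GLR3.6 (AT3G51480), a glutamate receptor-like channel of wound signalling, which had 12.04, 12.16, 11.4 and 11.3 CPM in infested pools, against 16.6, 15.24, 18.19 and 16.4 CPM in control pools (log2 fold change -0.50, SE 0.12, adjusted p = 0.0016).

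Transcription factors of rapid responses were raised as well. WRKY genes rose in 20 of 25 members and fell in 0 (median 1.75). WRKY62 (AT5G01900) had 14.4, 14.6, 15.12 and 18.1 CPM in infested pools, against 0, 0.693, 0.265 and 0 CPM in control pools (log2 fold change 5.94, SE 0.61, adjusted p = 7.7e-10), and WRKY38 (AT5G22570) and WRKY51 (AT5G64810), like WRKY62 known from the SA response, rose by 5.16 and 3.93. WRKY75 (AT5G13080) had 44 counts in infested and 3 in control pools, a ratio of 16.4 (95% interval 5.27 to 82.8), and its adjusted p of 0.0097 became 0.06 without infested replicate 2. ERF, ZAT and CBF genes, listed together with MYB15 and MYBR1, rose in 17 of 26 members and fell in 1 (median 2.04). MYB15 (AT3G23250), an activator of lignin and defence genes, had 22.3, 18.6, 13.5 and 20.8 CPM in infested pools, against 0.0574, 1.28, 0.955 and 0.405 CPM in control pools (log2 fold change 4.76, SE 0.69, adjusted p = 1.4e-06). The repressor ERF11 (AT1G28370) and ERF13 (AT2G44840) rose by 3.88 and 3.93, and AT3G53600, a zinc finger gene, by 4.25. The fall was that of the zinc finger gene AT2G28200 at -0.52 (adjusted p = 0.01, and 0.086 without infested replicate 3).

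Genes that supply precursors of indole compounds rose along the tryptophan pathway. Of the genes for shikimate and tryptophan synthesis 11 of 16 were higher and 1 lower (median 1.45), and within the tryptophan branch 8 of 10 were higher. ASA1 (AT5G05730), the first and feedback-controlled enzyme of the branch, had 384, 256, 209 and 342 CPM in infested pools, against 47.4, 92.6, 71.2 and 51.5 CPM in control pools (log2 fold change 2.18, SE 0.20, adjusted p = 1.3e-10). All infested pools were far above all control pools. TRP1 (AT5G17990), PAI2 (AT5G05590) and TSA1 (AT3G54640), which carry out later steps, rose by 2.0, 2.19 and 2.03; reads of PAI2 are shared with near-identical copies. CM1 (AT3G29200), the chorismate mutase that leads to phenylalanine and tyrosine instead, had 30.096, 29.9, 36.0 and 35.7 CPM in infested pools, against 45.5, 42.3, 49.1 and 46.6 CPM in control pools (log2 fold change -0.48, SE 0.08, adjusted p = 3.7e-06), with all infested pools below all control pools.

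Sulfate assimilation and glutathione genes rose in 16 of 22 members and fell in 2 (median 0.78). All 4 genes that make, move or recycle PAPS, the sulfate donor of glucosinolate sulfotransferases, rose. APK (AT2G14750), an APS kinase, had 564, 395, 370.1 and 482 CPM in infested pools, against 147, 235, 173 and 162 CPM in control pools (log2 fold change 1.34, SE 0.16, adjusted p = 1.9e-08), and AKN2 (AT4G39940), a further APS kinase, rose by 1.39. Glutathione synthetase GSH2 (AT5G27380) had 170.5, 142, 131 and 138 CPM in infested pools, against 48.6, 65.9, 59.1 and 52.5 CPM in control pools (log2 fold change 1.36, SE 0.08, adjusted p = 1.6e-16). ATSDI1 (AT5G48850), a sulfur deficiency marker that represses aliphatic glucosinolate synthesis, rose by 1.90 (adjusted p = 3.2e-06). The reductase gene APR2 (AT1G62180) went the other way, with 222, 215, 211 and 201 CPM in infested pools, against 272, 278, 342 and 312 CPM in control pools (log2 fold change -0.50, SE 0.09, adjusted p = 5.9e-05), as did APS2 (AT1G19920) at -0.24 (adjusted p = 0.008, and 0.072 without control replicate 3).

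Indole glucosinolate genes rose in 15 of 20 members and fell in 0 (median 1.14), including all 9 genes of the core pathway. CYP79B3 (AT2G22330), which commits tryptophan to the pathway, had 832, 636, 557 and 781 CPM in infested pools, against 63.1, 214, 111 and 67.1 CPM in control pools (log2 fold change 2.62, SE 0.32, adjusted p = 3.9e-08). IGMT5 (AT1G76790), a methyltransferase of the 1-methoxy form, had 353, 194, 154 and 290.0 CPM in infested pools, against 6.94, 41.3, 20.4 and 9.96 CPM in control pools (log2 fold change 3.65, SE 0.47, adjusted p = 1.6e-07), and CYP81F4 (AT4G37410), the P450 that acts before it, rose by 2.83. CYP81F2 (AT5G57220), the P450 of the 4-methoxy form, was at -0.40 (adjusted p = 0.57). The regulator MYB51 (AT1G18570) was at 0.16 (adjusted p = 0.69). Camalexin and related indole genes rose in 8 of 9 members. PAD3 (AT3G26830), the last enzyme of camalexin synthesis, had 2.63, 10.8, 4.17 and 1.42 CPM in infested pools, against 0.0574, 0.160, 0 and 0.0579 CPM in control pools (log2 fold change 5.98, SE 1.1, adjusted p = 6e-05), CYP71A13 (AT2G30770) had 222 counts in infested and 1 in control pools, a ratio of 249 (95% interval 44.2 to 9870.3), and the glutathione transferase gene GSTF7 (AT1G02920), with a near-identical neighbour, had 21.8, 71.2, 24.06 and 18.6 CPM in infested pools, against 3.73, 7.57, 5.30 and 5.79 CPM in control pools (log2 fold change 2.59, adjusted p = 0.00012). AT1G26390, an FAD-linked oxidase of the indole carbonyl branch, rose by 4.34. In all 4 genes infested replicate 2 was the highest pool, as for PR1.

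Aliphatic glucosinolate genes, which use methionine, rose in 20 of 27 members and fell in 1, by smaller amounts (median 0.54). Transporters GTR1 (AT3G47960) and GTR2 (AT5G62680) led the group: GTR1 had 219, 208, 172 and 238 CPM in infested pools, against 63.1, 95.4, 86.3 and 68.8 CPM in control pools (log2 fold change 1.42, SE 0.18, adjusted p = 4.9e-08) and GTR2 rose by 0.98; both also carry indole glucosinolates. SOT17 (AT1G18590), a sulfotransferase, and FMO GS-OX2 (AT1G62540), which oxidises side chains, rose by 1.12 and 1.05. The fall was that of MYB28 (AT5G61420), the main activator of the pathway, with 55.7, 57.8, 67.6 and 55.8 CPM in infested pools, against 78.0, 83.8, 106 and 77.5 CPM in control pools (log2 fold change -0.54, SE 0.09, adjusted p = 1.5e-05). Breakdown genes rose in 11 of 15 members and fell in 0 (median 0.61). NSP1 (AT3G16400), which directs breakdown to nitriles, had 1054, 727, 622 and 948 CPM in infested pools, against 164, 322, 224 and 201 CPM in control pools (log2 fold change 1.88, SE 0.22, adjusted p = 2.7e-08), and MVP1 (AT1G54030), a lipase-type myrosinase partner, rose by 2.02. The classical myrosinase gene TGG1 (AT5G26000) was at -0.12 (adjusted p = 0.55). NIT2 (AT3G44300), a nitrilase, had 6.40, 20.4, 3.57 and 0.309 CPM in infested pools, against 0.459, 0.586, 0.530 and 0.637 CPM in control pools, a wide range within the infested pools in which replicate 4 lay below every control pool (log2 fold change 3.77, adjusted p = 0.00012; 0.067 in a fit to the 8 libraries alone).

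Leaf volatile genes split by branch. Of 19 genes tested 9 rose and 3 fell (median 0.71, and 1.46 without the gene that had no counts in either group). CYP82G1 (AT3G25180), the last enzyme of homoterpene synthesis, had 21.8, 25.9, 16.3 and 17.7 CPM in infested pools, against 0, 1.70, 0.477 and 0.232 CPM in control pools (log2 fold change 5.03, SE 0.54, adjusted p = 3e-09), and TPS04 (AT1G61120), the terpene synthase before it, had 320.3, 249, 177 and 316 CPM in infested pools, against 0, 55.2, 8.22 and 0.290 CPM in control pools (log2 fold change 4.05, adjusted p = 0.00049; 0.075 in a fit to the 8 libraries alone, range over the alternatives 4.8e-06 to 0.075). TPS04 was among the genes of widest spread in the control pools, as were NATA1 (AT2G39030), an acetyltransferase that makes the defence compound acetylornithine, with 1362, 889, 758 and 1021 CPM in infested pools, against 1.55, 193, 29.97 and 8.45 CPM in control pools, and CSLA01 (AT4G16590), a glycan synthase, with 550.0, 372, 331 and 412 CPM in infested pools, against 4.42, 123, 54.7 and 10.7 CPM in control pools. Control replicate 2 was highest in all 3, and below the lowest infested pool in each. NATA1 and CSLA01 rose by 4.11 and 3.11 (adjusted p = 0.0019 and 0.00014), and their adjusted p was 0.077 and 0.068 in a fit to the 8 libraries alone (ranges over the alternatives 6e-05 to 0.077 and 1.1e-06 to 0.068). TPS03 (AT4G16740) rose by 4.57, and DXPS1 (AT3G21500), annotated as a synthase at the start of the plastid isoprenoid pathway, had 87 counts in infested and 1 in control pools, a ratio of 97.5 (95% interval 17.0 to 3895). The falls were in the general isoprenoid supply: HDR (AT4G34350), HMG1 (AT1G76490) and CLA1 (AT4G15560) were at -0.53, -0.33 and -0.23 (adjusted p = 5.9e-10, 0.0029 and 0.018; for CLA1 up to 0.075 with 1 pool left out).

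Phenylpropanoid genes fell in 7 of 16 members and rose in 4 (median -0.22), and without control replicate 3 the falls numbered 4. HCT (AT5G48930), an enzyme on the way to lignin and to chlorogenic acid, had 147, 142, 158 and 185 CPM in infested pools, against 270.0, 239, 279 and 313 CPM in control pools (log2 fold change -0.80, SE 0.10, adjusted p = 3.8e-08). ELI3-2 (AT4G37990), an alcohol dehydrogenase, and CAD5 (AT4G34230), PAL1 (AT2G37040) and OMT1 (AT5G54160) of the same pathway rose by 5.31, 1.28, 0.76 and 0.72. Anthocyanin and other flavonoid genes rose in 11 of 19 members and fell in 0 (median 1.15). DFR (AT5G42800), the enzyme at the entry to anthocyanins, had 95.5, 82.4, 83.0 and 77.9 CPM in infested pools, against 14.3, 46.5, 39.6 and 21.8 CPM in control pools (log2 fold change 1.47, SE 0.36, adjusted p = 0.0025), with control replicates 2 and 3 above replicates 1 and 4. The activator PAP1 (AT1G56650) and the decorating enzymes UF3GT (AT5G54060) and AT5MAT (AT3G29590) rose by 1.70, 1.48 and 1.46.

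Redox and repair genes held the 2 largest folds among genes with a mean of at least 10 CPM over the 8 libraries. Antioxidant genes rose in 16 of 24 members and fell in 1 (median 0.73). MSRB7 (AT4G21830), which reduces oxidised methionine in proteins, had 35.7, 21.9, 16.3 and 25.9 CPM in infested pools, against 0, 1.17, 0.106 and 0 CPM in control pools (log2 fold change 6.22, SE 0.73, adjusted p = 3.6e-08). Its neighbours MSRB8 (AT4G21840) and MSRB9 (AT4G21850) rose by 5.13 and 3.91. MDHAR (AT3G09940), a monodehydroascorbate reductase that restores vitamin C, had 158, 102, 86.0 and 106 CPM in infested pools, against 0, 5.22, 1.06 and 0.0579 CPM in control pools (log2 fold change 6.11, SE 0.60, adjusted p = 6.6e-10). Control replicates 1 and 4 were at or near 0 in both genes and control replicate 2 was the highest control. The one fall was CAT2 (AT4G35090), the catalase that clears peroxide from photorespiration, with 781, 864, 799.8 and 712 CPM in infested pools, against 991, 1032, 1438 and 1076 CPM in control pools (log2 fold change -0.52, SE 0.10, adjusted p = 7.6e-05). Tau and phi glutathione transferases rose in 9 of 22 members and fell in 1: GSTU4 (AT2G29460) had 28.8, 19.2, 9.61 and 20.7 CPM in infested pools, against 0.0574, 2.72, 0.690 and 0.290 CPM in control pools (log2 fold change 4.34, SE 0.72, adjusted p = 1.5e-05), GSTU8 (AT3G09270) rose by 3.22, and GSTU11 (AT1G69930) had 106 counts in infested and 1 in control pools, a ratio of 119 (95% interval 20.9 to 4736), while GSTU27 (AT3G43800) was at -0.32 (adjusted p = 0.034, and up to 0.11 with 1 pool left out). Genes of xenobiotic-type detoxification rose in 10 of 14 members, among them the P450 gene CYP81D11 (AT3G28740) with 24.08, 15.43, 12.15 and 22.7 CPM in infested pools, against 0, 2.504, 0.637 and 0.405 CPM in control pools (log2 fold change 4.35, SE 0.46, adjusted p = 1.5e-09), and the aldo-keto reductase gene ChlAKR (AT2G37770) at 3.04.

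Of genes for protein folding in the endoplasmic reticulum 14 of 16 were higher and 0 lower, with a median log2 fold change of 0.49 and a range of 0.16 to 3.58. BIP3 (AT1G09080), the stress-inducible form of the chaperone BiP, had 2.82, 5.61, 2.66 and 1.05 CPM in infested pools, against 0.115, 0.480, 0.159 and 0.232 CPM in control pools (log2 fold change 3.58, SE 0.75, adjusted p = 0.00033). The disulfide isomerases PDIL1-2 (AT1G77510) and PDIL1-1 (AT1G21750) rose by 0.86 and 0.76; PDIL1-2 had 48.2, 87.8, 60.0 and 49.5 CPM in infested pools, against 31.2, 36.4, 35.1 and 32.6 CPM in control pools. Infested replicate 2 was highest in all 3 genes. Heat shock genes rose in 3 of 15 members, one of them the factor HSF4 (AT4G36990) with 61.1, 54.7, 42.5 and 50.3 CPM in infested pools, against 10.04, 16.5, 12.31 and 10.7 CPM in control pools (log2 fold change 2.07, SE 0.18, adjusted p = 3e-11). The 4 lipid-transfer-type proteins of the EARLI1 cluster, which sit side by side and act in systemic immune priming, all rose, with a median of 5.26. AT4G12490 had 45.1, 46.4, 43.2 and 32.9 CPM in infested pools, against 0.688, 1.33, 0.424 and 0.869 CPM in control pools (log2 fold change 5.65, SE 0.47, adjusted p = 8.5e-12), and EARLI1 (AT4G12480) had 47.3, 62.8, 46.9 and 26.5 CPM in infested pools, against 0.975, 1.86, 0.796 and 2.66 CPM in control pools (log2 fold change 4.87, SE 0.41, adjusted p = 2.5e-11). AZI1 (AT4G12470) and AT4G12500 rose by 3.63 and 6.90. The lowest infested pool was replicate 4 in each of the 4 genes.

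Genes of auxin and shade-type growth fell in 26 of 33 members and rose in 1 (median -0.54). IAA29 (AT4G32280), an auxin response gene, had 1.88, 1.95, 1.995 and 2.91 CPM in infested pools, against 19.9, 13.3, 13.1 and 17.3 CPM in control pools (log2 fold change -2.86, SE 0.29, adjusted p = 4.6e-10). HFR1 (AT1G02340), a light-signalling factor that is switched on by shade, had 4.01, 2.96, 5.14 and 4.64 CPM in infested pools, against 16.3, 14.2, 12.9 and 19.8 CPM in control pools (log2 fold change -1.91, SE 0.23, adjusted p = 1.8e-08), and all infested pools were below all control pools in both. YUC9 (AT1G04180), an auxin synthesis gene, had 7 counts over the infested and 67 over the control pools and fell by 3.02 on the log2 scale. SAUR22 (AT5G18050), of a group that drives cell expansion, fell by 1.42, with near-identical neighbours. The rise was that of GH3.3 (AT2G23170), which conjugates auxin, with 21.4, 17.7, 20.2 and 23.2 CPM in infested pools, against 9.29, 11.6, 8.54 and 7.93 CPM in control pools (log2 fold change 1.14, SE 0.17, adjusted p = 8.9e-07). Brassinosteroid genes fell in 11 of 16 members and rose in 1 (median -0.44). BEE3 (AT1G73830) had 3.20, 2.83, 3.87 and 3.65 CPM in infested pools, against 18.4, 12.7, 10.3 and 16.7 CPM in control pools (log2 fold change -2.09, SE 0.22, adjusted p = 5.1e-10), the synthesis gene BR6OX1 (AT5G38970) and the growth factors PRE5 (AT3G28857) and BEE1 (AT1G18400) fell by 2.43, 1.18 and 0.88, and the synthesis gene DET2 (AT2G38050) rose by 0.72.

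Gibberellin and cytokinin genes were divided. Of 12 gibberellin genes 4 fell and 2 rose: the catabolic genes GA2OX2 (AT1G30040) and GA2OX6 (AT1G02400) rose by 1.61 and 1.21, while ATGA2OX1 (AT1G78440), of the same family, fell by 1.85. Of 12 cytokinin genes 3 rose and 2 fell (median -0.16). The rises were those of the 3 cytokinin oxidases in the list, enzymes that destroy the hormone. Oxidases outside the list were not looked at. CKX4 (AT4G29740) had 33.0, 27.3, 19.7 and 35.6 CPM in infested pools, against 8.43, 9.43, 9.97 and 8.92 CPM in control pools (log2 fold change 1.65, SE 0.25, adjusted p = 2.9e-06), CKX5 (AT1G75450) rose by 1.09, and CKX3 (AT5G56970) had 13 counts in infested and 1 in control pools, a ratio of 14.6 (95% interval 2.19 to 619). The response regulators ARR9 (AT3G57040) and RR3 (AT2G41310) fell by 0.64 and 0.55, and the other 7 of that class did not pass. ABA genes rose in 5 of 25 members and fell in 1 (median 0.21). KIN1 (AT5G15960) and RD20 (AT2G33380), both ABA-responsive, rose by 2.65 and 1.49, whereas the synthesis gene NCED3 (AT3G14440) was at 0.19 (adjusted p = 0.73). The number of ABA genes higher was 10 in a fit to the 8 libraries alone and 3 without infested replicate 1.

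Wall, wax and water channel genes changed in both directions. Of 23 wall genes 8 rose and 6 fell. The falls were 4 expansins, which loosen walls during growth, and the xyloglucan enzymes XTH17 (AT1G65310) and XTH4 (AT2G06850). EXPA8 (AT2G40610) and EXPA11 (AT1G20190) fell by 1.0 and 1.08, and EXPA1 (AT1G69530) and EXPA5 (AT3G29030) by 0.55 and 0.45. XTH17 had 2.70, 4.41, 4.84 and 4.39 CPM in infested pools, against 19.9, 12.9, 16.8 and 19.8 CPM in control pools (log2 fold change -2.08, SE 0.20, adjusted p = 1.3e-10). XTH18 (AT4G30280), its close relative, moved the other way, with 20.001, 16.7, 9.37 and 25.7 CPM in infested pools, against 1.95, 3.04, 2.44 and 2.72 CPM in control pools (log2 fold change 2.82, SE 0.29, adjusted p = 1.6e-09), and the cell wall invertase gene ATBFRUCT1 (AT3G13790) rose by 2.3. CSLG2 (AT4G24000) had 40 counts in infested and 0 in control pools, at least 14.9-fold higher against a floor of 3 counts over the group; its adjusted p was 0.019, and 0.078 without infested replicate 2. Wax genes fell in 7 of 14 members and rose in 1 (median -0.38, and -0.40 without a gene that had 3 counts in infested and 0 in control pools): CER1 (AT1G02205), of alkane synthesis, had 85.1, 81.8, 94.99 and 85.7 CPM in infested pools, against 155, 145, 210.5 and 163 CPM in control pools (log2 fold change -0.96, SE 0.09, adjusted p = 8.8e-11), CER4 (AT4G33790) and WSD1 (AT5G37300) fell by 2.11 and 0.82, and CER3 (AT5G57800), the partner of CER1, rose, with 292, 183, 181 and 273 CPM in infested pools, against 119.5, 136, 116 and 127 CPM in control pools (log2 fold change 0.90, SE 0.10, adjusted p = 1.8e-09). Aquaporins fell in 6 of 13 members, led by the tonoplast gene DELTA-TIP (AT3G16240) with 487, 497, 615 and 596 CPM in infested pools, against 1123, 839.7, 892 and 1182 CPM in control pools (log2 fold change -0.88, SE 0.12, adjusted p = 3.5e-07), and rose in 2, PIP1A (AT3G61430) at 0.34 and PIP2;5 (AT3G54820) at 0.32, the call of PIP2;5 ending in 5 of the 8 fits that left out 1 pool and with library totals as the only scaling (adjusted p up to 0.11).

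Among genes with a mean of at least 10 CPM over the 8 libraries the largest falls were AT2G05540, XTH17, THI2.2 (AT5G36910), HFR1 and ADS1 (AT1G06080). AT2G05540, a glycine-rich protein, had 12.5, 17.2, 12.5 and 14.8 CPM in infested pools, against 84.4, 54.3, 42.4 and 95.2 CPM in control pools (log2 fold change -2.28, SE 0.36, adjusted p = 6.5e-06). THI2.2, a thionin, had 6.40, 6.61, 5.08 and 8.22 CPM in infested pools, against 30.396, 22.4, 22.7 and 32.4 CPM in control pools (log2 fold change -2.03, SE 0.26, adjusted p = 9.5e-08), in contrast to the rise of its relative THI2.1. ADS1, a fatty acid desaturase, had 16.9, 16.4, 19.0 and 20.4 CPM in infested pools, against 80.1, 53.7, 56.2 and 75.4 CPM in control pools (log2 fold change -1.86, SE 0.20, adjusted p = 2.3e-09). The remaining 7 of the 12 largest falls lay between -1.75 and -1.42 and included AT1G62510, a lipid-transfer-type protein, ACA1 (AT3G52720), a carbonic anhydrase, and the phosphatase gene AT5G02760; AT5G62280, AT5G02540, AT2G29300 and AT4G36850 were the others.

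Photosynthesis genes fell by small amounts that were larger than the spread between pools for the enzymes of carbon metabolism. Carbon fixation genes fell in 17 of 20 members and rose in 0 (median -0.37), and photorespiration genes in 7 of 8 (median -0.43). GAPB (AT1G42970), of the reduction step of the cycle, had 1301, 1243, 1294 and 1204 CPM in infested pools, against 1708, 1622, 1948 and 1785 CPM in control pools (log2 fold change -0.49, SE 0.08, adjusted p = 4.9e-06). GLDP1 (AT4G33010), a subunit of the photorespiratory glycine decarboxylase, had 1707, 1863, 1710.0 and 1729 CPM in infested pools, against 2401, 2279, 2935 and 2503 CPM in control pools (log2 fold change -0.53, SE 0.10, adjusted p = 5e-05), and SHM1 (AT4G37930) and HPR (AT1G68010), of the next steps, fell by 0.45 and 0.47. No pool of either group overlapped with the other in these 4 genes. Light harvesting and photosystem genes fell in 12 of 36 members and rose in 0 (median -0.24). That count was 23 with library totals as the only scaling and in a fit to the 8 libraries alone, and 7 without infested replicate 2. NPQ4 (AT1G44575), which dissipates excess light, had 1245, 1259, 1241 and 1319 CPM in infested pools, against 1662, 1638, 1772 and 1735 CPM in control pools (log2 fold change -0.43, SE 0.09, adjusted p = 0.00022), and the plastocyanin gene DRT112 (AT1G20340) and the minor antenna gene LHCB4.3 (AT2G40100) fell by 0.37 and 0.78. Chlorophyll synthesis genes fell in 8 of 16 members and rose in 1 (median -0.26): GUN5, CRD1 (AT3G56940) and GUN4 (AT3G59400) fell by 0.49, 0.43 and 0.43, while GPRI1 (AT2G20570), an activator of such genes also called GLK1, rose by 0.38 (adjusted p = 0.00051).

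**Figure D4:**
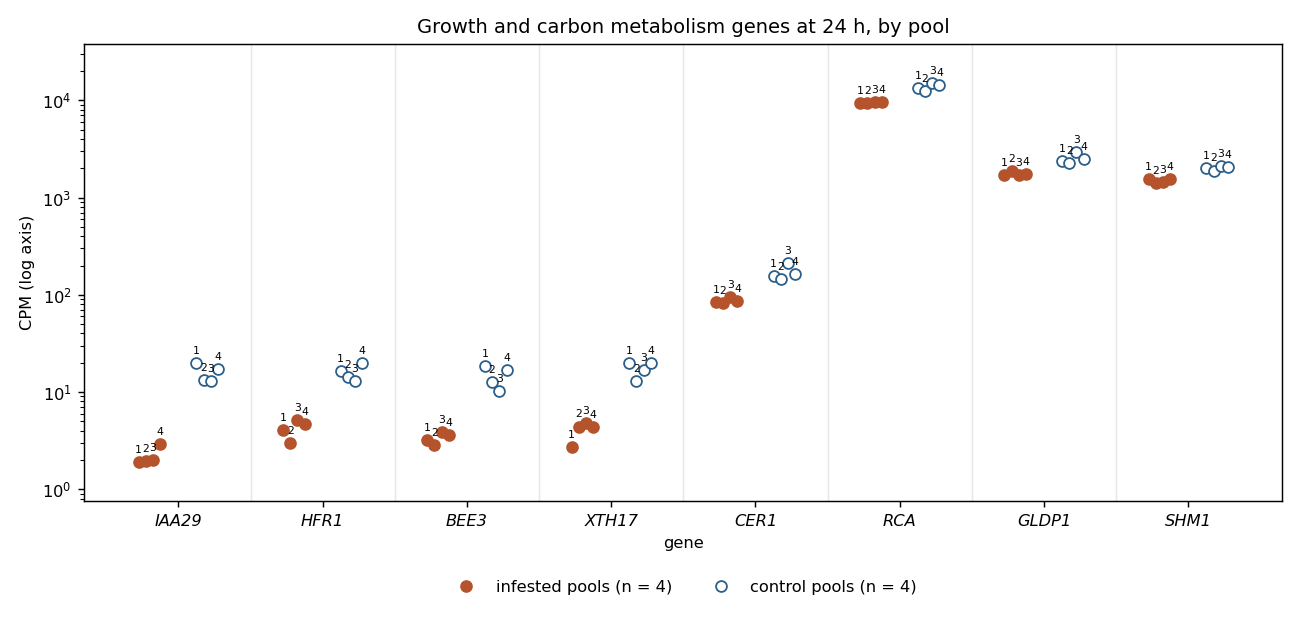
CPM (log axis) of 8 genes of growth and carbon metabolism in each pool, with infested pools (left, filled circles) and control pools (right, open circles) per gene and the replicate number beside each point. All infested pools lie below all control pools in each gene, by a log2 fold change of -2.86 for IAA29 and -0.45 for SHM1.

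Senescence and carbon supply genes did not move as 1 group. Of 19 genes for chlorophyll breakdown, senescence and sugar starvation 7 rose and 2 fell. SAG13 (AT2G29350), a reductase that marks senescence and oxidative stress, had 21.9, 52.9, 29.99 and 17.5 CPM in infested pools, against 0.746, 1.92, 1.22 and 0.926 CPM in control pools (log2 fold change 4.65, SE 0.62, adjusted p = 2.7e-07), with infested replicate 2 highest. ASN1 (AT3G47340), asparagine synthetase, known to rise in sugar-starved leaves, had 285, 212, 182 and 379 CPM in infested pools, against 67.8, 67.0, 38.8 and 74.1 CPM in control pools (log2 fold change 2.1, SE 0.30, adjusted p = 9.1e-07). The falls were the senescence regulators NAC6 (AT5G39610) and NAP (AT1G69490), of which NAP had 14.9, 15.37, 9.86 and 14.2 CPM in infested pools, against 30.9, 31.2, 30.7 and 33.9 CPM in control pools (log2 fold change -1.22, SE 0.21, adjusted p = 2.3e-05) and NAC6 was at -1.40. Starch and sugar genes rose in 13 of 24 members and fell in 2 (median 0.32). The beta-amylase gene BAM5 (AT4G15210) had 172, 98.5, 116 and 82.4 CPM in infested pools, against 2.70, 24.13, 12.41 and 4.92 CPM in control pools (log2 fold change 3.40, SE 0.52, adjusted p = 3.4e-06), and SWEET12 (AT5G23660), a sucrose exporter, had 76.8, 87.4, 54.7 and 62.2 CPM in infested pools, against 4.01, 16.7, 12.201 and 5.15 CPM in control pools (log2 fold change 2.87, SE 0.34, adjusted p = 2.2e-08). MSS1 (AT5G26340), a hexose importer induced by pathogens, rose by 2.40, and the vacuolar sugar carrier gene SWEET2 (AT3G14770) fell by 1.03. Phosphate and nitrogen genes were higher in 5 of 19 and lower in 4 of 19 members: the nitrate transporter gene NRT1.8 (AT4G21680), the phosphatase gene PS2 (AT1G73010) and the glutamate dehydrogenase gene GDH2 (AT5G07440) rose by 3.26, 2.11 and 1.25, and NIR1 (AT2G15620), nitrite reductase, fell by 0.77. Iron genes and those of tyrosine breakdown and tocopherol synthesis were each higher in 2 and lower in 2 cases, of 14 and 7 tested. None of 20 cell division genes passed by edgeR's test (0 at an unadjusted p under 0.05), and by DESeq2 0 were higher and 0 lower.

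Clock genes change through the day. Morning genes were lower in 7 of 9 members, and over the whole list 9 fell and 3 rose. CCA1 (AT2G46830) had 140.4, 143, 139.7 and 155 CPM in infested pools, against 253, 235, 270.2 and 265 CPM in control pools (log2 fold change -0.82, SE 0.08, adjusted p = 3e-10). A fall of 0.67 was measured for LHY (AT1G01060) and of 0.62 for AT3G54500, a coactivator of the clock, and all infested pools were below all control pools in CCA1 and LHY. PRR5 (AT5G24470), expressed later in the day, was at 1.24 (adjusted p = 0.014, and 0.057 without control replicate 4); the rises numbered 1 with library totals as the only scaling and without control replicate 2. The hour of harvest of each pool is not given in the labels, and its part in these and other results was not tested.

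Comparing the effect of infestation at 24 h with that at 30 min, in separate sets of infested and control pools, gave a test of the difference between these times. The effect was higher at 24 h for 1192 genes (5.36%) and lower for 1255 (5.64%). Among groups of more than 4 genes, sulfur metabolism and aliphatic glucosinolates had the largest shares of higher effects: 14 of 22 and 16 of 27 had a higher effect at 24 h, and their median effects were 0.78 and 0.54 at 24 h and 0.03 and -0.11 at 30 min. Among other groups, starch and sugar genes had a higher effect at 24 h in 13 of 24, flavonoids in 8 of 19, indole glucosinolate genes in 10 of 20, protease inhibitors in 7 of 15, tryptophan and shikimate genes in 8 of 16, and JA defence proteins in 7 of 13. Of genes with a mean of at least 10 CPM over the 16 libraries of both times, AT4G12490, NATA1, THI2.1, EARLI1, the chitinase gene CHI (AT2G43570) and MDHAR differed most, by 5.93, 5.88, 5.52, 5.22, 4.63 and 4.38 on the log2 scale. EARLI1 was at -0.36 at 30 min and 4.87 at 24 h, and MDHAR at 1.73 and 6.11. NATA1 and THI2.1 were at -1.77 and -1.28 at 30 min and did not pass there (adjusted p = 0.31 and 0.64). Their control levels at 30 min were 13.1 ± 23.9 and 0.474 ± 0.295 CPM (SD), so the size of these differences is uncertain.

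Of the 1255 genes with a lower effect at 24 h than at 30 min, 854 were called higher at 30 min. Of the 1192 genes with a higher effect at 24 h, 417 were called lower at 30 min. At that time 13.3% of all genes were higher and 9.71% lower. The difference between times contains the effect at 30 min, so the choice of genes favours both counts, and they were not tested. Auxin and shade-type genes had 11 of 33 lower at 24 h and the group of danger perception 7 of 22. ARGOS (AT3G59900), an auxin-responsive gene of organ size, had an effect of 1.28 at 30 min and -1.81 at 24 h (difference -3.09, adjusted p = 4.2e-11). The immune receptor gene AT1G66090 was at 4.58 and 1.98, and the receptor kinase gene AT1G51820 at 4.51 and 2.26. RAV2 (AT1G68840) and BT5 (AT4G37610), which did not pass at 24 h (adjusted p = 0.35 and 0.37), had differences of -2.30 and -2.24, and AT3G60290, an oxygenase gene, of -2.25.

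Set against 4 d, the effect at 24 h was higher for 617 genes (2.77%) and lower for 131 (0.589%). Rapid transcription factors accounted for a large share of their own group: 20 of 26 ERF, ZAT and CBF genes had a higher effect at 24 h and 0 a lower one. Their median effect was 2.57 at 30 min, 2.04 at 24 h and -1.51 at 4 d, when 15 were lower in infested plants (7.68% of all genes were lower at 4 d and 8.68% higher). Calcium and MAP kinase genes, WRKY genes and SA regulators had 12 of 26, 12 of 25 and 10 of 16 members with a higher effect at 24 h. JA turnover and JA perception had none in either direction. ORA47 (AT1G74930), an ERF that activates JA synthesis genes, had 51.8, 22.7, 15.42 and 14.1 CPM in infested pools, against 1.78, 7.51, 1.38 and 2.14 CPM in control pools at 24 h, with infested replicate 1 highest (log2 fold change 3.01, SE 0.79, adjusted p = 0.004); its effect at 4 d was -3.08 (difference 6.08, adjusted p = 0.0002). STZ (AT1G27730), a zinc finger repressor also called ZAT10, was at 2.98 at 24 h and -2.52 at 4 d, and the mitochondrial carrier gene DIC2 (AT4G24570) at 2.33 and -3.11. Control means of ORA47, STZ and DIC2 were 3.20, 3.27 and 5.40 CPM at 24 h and 46.0, 54.8 and 119 CPM at 4 d. The 4 d control value of ORA47 had an SD of 39.7 CPM. Infested means were 26.0, 26.0 and 27.3 CPM at 24 h and 5.45, 9.56 and 13.8 CPM at 4 d. The change of sign came with higher control and lower infested levels at 4 d, and their parts were not tested. AT1G07135, AT4G29780 and ERF104 (AT5G61600) had differences of 5.82, 5.30 and 5.32; ERF104 did not pass at 24 h (adjusted p = 0.056), but did with DESeq2 and in 3 other alternatives (range over the alternatives 0.018 to 0.21).

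Among the few genes with a lower effect at 24 h than at 4 d were growth genes of the SAUR family. SAUR20 (AT5G18020), SAUR63 (AT1G29440), AT5G18030 and AT4G38860 had effects of -0.89, -0.89, -1.06 and -0.32 at 24 h and 0.79, 0.63, 0.43 and 1.24 at 4 d (AT4G38860 did not pass at 24 h, adjusted p = 0.078, 0.041 with library totals as the only scaling and 0.006 in a fit to the 8 libraries alone). THI2.2 was at -2.03 and -0.26. AT3G27400, a pectate lyase-type gene, rose at both times, by 1.53 at 24 h and 3.28 at 4 d (difference -1.75, adjusted p = 1.7e-06). The number of effects lower at 24 h than at 4 d was 83 without infested replicate 1 at 24 h and 289 in a fit to the 16 libraries of both times.

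**Figure D5:**
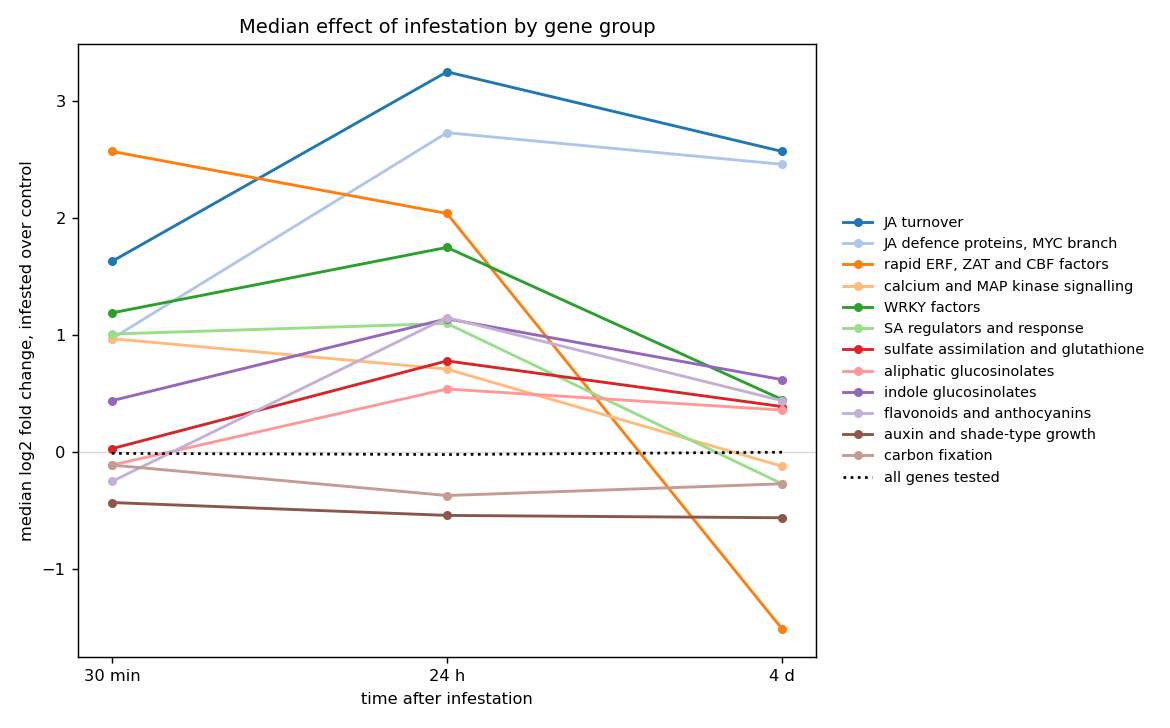
Median log2 fold change of infested over control plants at 30 min, 24 h and 4 d (x axis, in that order) for 12 gene groups, each line 1 group and the dotted line all genes tested. Rapid ERF, ZAT and CBF factors run from 2.57 at 30 min over 2.04 at 24 h to -1.51 at 4 d, while aliphatic glucosinolates run from -0.11 over 0.54 to 0.36.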

How the data were processed

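Whole aerial parts of infested and control Col-0 plants were sequenced as RNA, each library from a pool of 4 plants. The authors deposited raw gene counts, and fastp, HISAT2, featureCounts, DESeq2 and the TAIR10 genome appear in the submitters' processing notes; tool versions, settings and the strand setting are not given in any source used here, so overlapping genes and near-identical copies may share or split reads. All 48 libraries were used and 0 columns of sample values were left out. The counts were fitted with edgeR 4.0.16 (R 4.3.3), by its robust quasi-likelihood test with 1 coefficient for each of 12 groups, TMM scaling, filterByExpr (22252 genes kept) and Benjamini-Hochberg adjustment with a threshold of 0.05. Standard errors are the absolute log2 fold change over the square root of F. Differences between times are contrasts of infestation effects in that fit. DESeq2 1.42.0 was an alternative. Symbols are from RefSeq's TAIR10.1 annotation; other genes go by locus. The promoter search that had been planned was not run and no sequences are given. The pipeline was tested on simulated data for the comparison at 24 h over 22252 genes with 200 changed ones: 64% of 1.5-fold, 82% of 2-fold and 100% of 4-fold and 8-fold changes were recovered, with 9 of 182 calls false. The changed genes were drawn from those with a mean CPM of at least 1.

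Gene groups and comparisons were chosen with earlier results of these data known. Genes are named by rule: the 12 largest rises and falls with a mean of at least 10 CPM, the 6 largest gains and losses of mean CPM, up to 4 called members with the largest change in each group with members against its majority and up to 2 key members not called, the 6 largest differences between times in each direction with a mean of at least 10 CPM, and the 6 widest spreads in each group of pools. SESA1, GEA6, KAT1 and IRT1, of the tissue markers, and JAZ4, JAZ11, ACX5, ABCG16, UPI and AT2G38870 were named after their values were seen. Some genes that the rule names are not reported here. Totals per library are given with the results; for ratios and floors of 3 counts, 95% intervals cover counting error only. The 8 libraries are separate pools and chi-square per gene between replicates was 4.13 to 19.2, so none was counted as a repeat of another.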

Additional observations from a re-analysis of the deposited data

Results flagged for a closer look

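Levels of the genes named above were searched for a single pool far from the other 3 of its group, by Dixon's test. Of 482 sets of 4 pools 38 held such a pool. Chance gives about 5% for independent sets that were not chosen by their spread. Some of these genes were named for a wide spread and many share a high control replicate 2. The number found was therefore not tested against that share. In infested pools replicate 1 was far above the others for AT1G53885 (45.8 CPM). In infested pools replicate 2 was far above the others for GSTF7 (71.2 CPM), FRK1 (5.73 CPM), CYP71A13 (10.7 CPM), AT3G63380 (4.35 CPM), GLDP1 (1863 CPM) and GTR2 (111 CPM). In infested pools replicate 3 was far above the others for AT5G18030 (12.6 CPM) and MYB28 (67.6 CPM). In infested pools replicate 3 was far below the others for ERF11 (10.4 CPM). In infested pools replicate 4 was far above the others for YUC9 (0.247 CPM), HMG1 (205 CPM) and IAA29 (2.91 CPM). In control pools replicate 2 was far above the others for PDF1.4 (1.81 CPM), TPS04 (55.2 CPM), GSTU11 (0.0533 CPM), THI2.1 (16.7 CPM), ORA47 (7.51 CPM) and AT1G76640 (3.73 CPM). The same pool stood out for NATA1 (193 CPM), TI1 (17.2 CPM), AT2G43530 (149 CPM), DXPS1 (0.0533 CPM), RLP40 (2.40 CPM) and BGL2 (15.5 CPM). The same pool stood out for CRK38 (0.266 CPM), MSRB7 (1.17 CPM), SESA1 (0.0533 CPM), PAI2 (14.8 CPM), ERF2 (12.31 CPM) and CKX3 (0.0533 CPM). In control pools replicate 2 was far below the others for GUN4 (311 CPM). In control pools replicate 3 was far above the others for GA2OX6 (2.02 CPM), APS2 (125 CPM), CYP71A13 (0.0530 CPM), EXPA5 (74.2 CPM) and AT5G36790 (196 CPM). In control pools replicate 4 was far above the others for NAP (33.9 CPM). Where the printed level is that of a single read, as for GSTU11, DXPS1, SESA1, CKX3 and CYP71A13 in control pools, the other 3 pools of the group held none. Control replicate 2 is the pool named most often, and its part in the comparison is given by the counts without it.

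Effects of infestation that differed between times, tested as interactions, were found for 1192 genes with a higher and 1255 with a lower effect at 24 h than at 30 min, and for 617 and 131 against 4 d. The log2 differences of the named genes, 24 h minus 30 min, were positive for AT4G12490 (5.93), NATA1 (5.88), THI2.1 (5.52), EARLI1 (5.22), CHI (4.63) and MDHAR (4.38). They were negative for ARGOS (-3.09), AT1G66090 (-2.59), RAV2 (-2.30), AT3G60290 (-2.25), AT1G51820 (-2.24) and BT5 (-2.24). For 24 h minus 4 d they were positive for ORA47 (6.08), AT1G07135 (5.82), STZ (5.50), DIC2 (5.44), ERF104 (5.32) and AT4G29780 (5.30). They were negative for THI2.2 (-1.78), AT3G27400 (-1.75), SAUR20 (-1.68), AT4G38860 (-1.56), SAUR63 (-1.52) and AT5G18030 (-1.49).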

How the results depend on the processing

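Results were recomputed with RLE scaling, with library totals as the only scaling, with no filter on low counts, with a mean CPM of at least 1, in fits to the libraries of the times compared alone, with DESeq2, with a replicate block and without each replicate. Over these, genes higher at 24 h numbered 2464 to 3055 and genes lower 1726 to 2762, with the lowest of each without infested replicate 2. Leaving out 1 replicate gave 2464 to 2795 higher, 1726 to 2316 lower, 1207 to 1335 at least 2-fold higher and 195 to 237 at least 2-fold lower. It also gave 957 to 1215 and 1000 to 1235 genes with a higher and a lower effect at 24 h than at 30 min, and 502 to 667 and 83 to 164 against 4 d. With library totals as the only scaling 2647 genes were higher and 2762 lower, the median of all genes shifting by -0.05. The number of effects lower at 24 h than at 4 d, 131 as reported, was 289 in the fit to the libraries of the times compared alone; the cause was not tested.

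Of 96 counts of members higher or lower in a group, 74 stayed within 1.5 times under every alternative. In the fit to the 8 libraries alone, members lower numbered 2 for calcium and MAP kinase signalling, 2 for rapid ERF, ZAT and CBF factors, 2 for heat shock, 2 for ABA, 23 for light harvesting and 1 for iron, and members higher numbered 10 for ABA, 2 for chlorophyll synthesis and 1 for iron. With library totals as the only scaling, members lower numbered 2 for calcium and MAP kinase signalling and 23 for light harvesting, and members higher 1 for tyrosine breakdown and tocopherol, 1 for aquaporins and 1 for the clock. With no filter on low counts 1 iron gene was higher. Leaving out 1 replicate gave 3 to 6 ABA genes higher and 0 to 1 lower, 1 to 2 aquaporin genes higher, 1 to 2 clock genes higher and 3 to 5 ethylene genes lower. It gave 7 to 13 light harvesting genes lower, 4 to 7 phenylpropanoid genes lower, 1 to 2 iron genes and 1 to 2 genes of tyrosine breakdown and tocopherol in each direction, 1 to 2 starch and sugar genes lower and 1 to 2 sulfate genes lower. Members lower numbered 0 to 1 for JA synthesis, SA regulators, flavonoids, glutathione transferases and rapid factors.

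The labels do not say whether the same replicate number pairs an infested with a control pool. Correlations of same-numbered deviations from the group means ran from -0.15 to 0.042. Of the infested pools 0 correlated best with the control pool of their own number. Such correlations run over many genes at once, so they cannot exclude a pairing that touches fewer genes. With a replicate block 2967 genes were higher and 2585 lower, and the counts of at least 2-fold were 1281 and 221. Members lower were 2 for calcium and MAP kinase signalling, 1 for JA synthesis and 1 for JA perception, and 2 genes of chlorophyll synthesis were higher.

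Of the genes named, AT5G36790 changed sign without control replicate 1, 2 or 4 or infested replicate 3 or 4, at log2 fold changes of -0.21, -0.18, -0.22, -0.13 and -0.06, and PDF1.2 without infested replicate 2, at -0.28; neither passed in any of these. Without control replicate 3 they were at 2.32 and 1.42, and neither passed. The depth of 16.5 to 19.98 M counts limits genes of a few reads, for which ratios of counts are given. The self-test with 4 pools a group recovered 64% of changes of 1.5-fold, so small changes may be missed. It changed 200 of 22252 genes, whereas 23.2% of genes were called in the data, and it changed no gene with a mean under 1 CPM. Its 64% is therefore not the share recovered in this comparison.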
